A study of Homo sapiens with 2 samples.

Results

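Genes named as zinc finger proteins were examined for eIF4A1-bound RNA in DU145, an established human prostate cancer cell line. The set was chosen by symbol: every gene in the authors' annotated peak table whose symbol begins with ZNF, ZBTB, ZKSCAN, ZSCAN or ZFP followed by a digit, antisense symbols left out, with all of its peaks not called distal intergenic. It holds 26 of the 1539 genes with such a peak, and 29 of the 1844 peaks. A gene enters the set by having a peak, so the presence of a peak is not itself a result, and the values of the peaks are given as a description.

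The study precipitated RNA from cytoplasmic lysate with an antibody against eIF4A1 (the eIF4A1 sample) or with control rabbit IgG (the IgG sample), 1 library each from the same lysate, and both samples have the set number 2. The labels name no treatment, agent or engineered allele for either sample. With 1 library per group no value has a replicate error, no difference between conditions could be tested, and each fold below is the authors' linear value for a peak over the local control background. The fold has 1 added to both reads and background, so over a low background it stands near the number of reads plus 1. A fold is a property of 1 peak and not the RNA level of its gene.

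eIF4A1 is the RNA helicase of the cap-binding complex eIF4F, which opens structure in mRNA leaders so that the small ribosomal subunit can scan to the start codon. Most of the genes in the set encode proteins of the C2H2 class, in which a cysteine pair and a histidine pair hold a zinc ion and repeated fingers read DNA. Proteins with a KRAB domain recruit TRIM28 and silence transposable elements and genes, those with a SCAN domain form dimers through it, and those of the ZBTB group carry a BTB domain that binds corepressors. The largest family, the ZNF genes, is clustered on chromosome 19.

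The label of a transcription factor set does not hold for every gene. ZFP36 encodes tristetraprolin, a CCCH-type RNA-binding protein that promotes the decay of mRNAs with AU-rich elements, and ZNF286B is listed in RefSeq as a transcribed pseudogene. The set is therefore called zinc finger genes here. None of the 5 epithelial markers (KRT8, KRT18, KRT19, EPCAM, CDH1) had a peak, and none of 5 androgen receptor and luminal prostate markers. Of 5 blood and stromal markers 1 had a peak, VWF, with a fold of 2.99 on 2 reads. A peak list is no record of which RNAs a cell holds, and the labelled cell type could not be checked with it.

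The share of zinc finger genes listed with a peak was below that of protein-coding genes as a whole. Of 608 protein-coding genes that the symbol rule covers in RefSeq, 25 had a peak, which is 4.11% (exact Clopper-Pearson 95% interval 2.68 to 6.01). Over all 20056 protein-coding genes the share was 6.83%, and over the 19448 outside the rule it was 6.92% (interval 6.56 to 7.28). These intervals cover counting error only, and no test of the difference was made with 1 library per group. The transcribed pseudogene ZNF286B is the 26th gene, 1 of 31 transcribed pseudogenes that the rule covers.

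By name group, 18 of 517 ZNF genes had a peak (3.48%, interval 2.08 to 5.45), as did 4 of 42 ZBTB genes (9.52%, interval 2.66 to 22.6), 2 of 21 ZSCAN genes (9.52%, interval 1.17 to 30.4) and 1 of 21 ZFP genes, ZFP36. None of the 7 ZKSCAN genes had one (exact interval up to 41.0%). The ZNF share lies under that of the ZBTB and ZSCAN genes, but the intervals of the smaller groups contain it.

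Chromosome 19, which holds the largest number of these genes, was counted apart from the rest. There 6 of 265 zinc finger genes had a peak (2.26%, interval 0.835 to 4.86), against 145 of the 1186 other protein-coding genes of that chromosome (12.2%, interval 10.4 to 14.2). The 2 intervals do not overlap. On the other chromosomes the share was 5.54% for zinc finger genes (19 of 343, interval 3.37 to 8.52) and 6.57% for other genes (1200 of 18262, interval 6.22 to 6.94), and these intervals overlap. Chromosome 19 held 43.6% of the zinc finger genes of the rule (265 of 608) and 24.0% of those with a peak (6 of 25), with an interval of 9.36 to 45.1 that contains 43.6%. Stricter rules moved that share in different directions. It was above 43.6% under stricter rules on reads and fold, at 50% of the 6 genes with at least 5 reads and 60.0% of the 5 genes with a fold of at least 5. At a −log10 q of at least 5 it was lower, at 16.7% of 6 genes.

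The order on chromosome 19 was the same when genes were counted by the RefSeq span that holds the summit, with 9 of 265 zinc finger genes (3.40%, interval 1.56 to 6.35) against 144 of 1186 other genes (12.1%, interval 10.3 to 14.1). With summits of at least 5 reads it was 3 of 265 (1.13%, interval 0.234 to 3.27) against 51 of 1186 (4.30%, interval 3.22 to 5.62), where the intervals overlap slightly. At a −log10 q of at least 5 it was 1 of 265 (0.377%, interval 0.00955 to 2.08) against 42 of 1186 (3.54%, interval 2.56 to 4.76), where they do not. Gene length differed between these groups: the median RefSeq span was 23.4 kb for zinc finger genes and 12.6 kb for other genes of chromosome 19, and 24.1 kb and 25.8 kb on the other chromosomes. On chromosome 19 the zinc finger genes were therefore the longer group. The part of gene length in the shares was not tested.

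**Figure D1:**
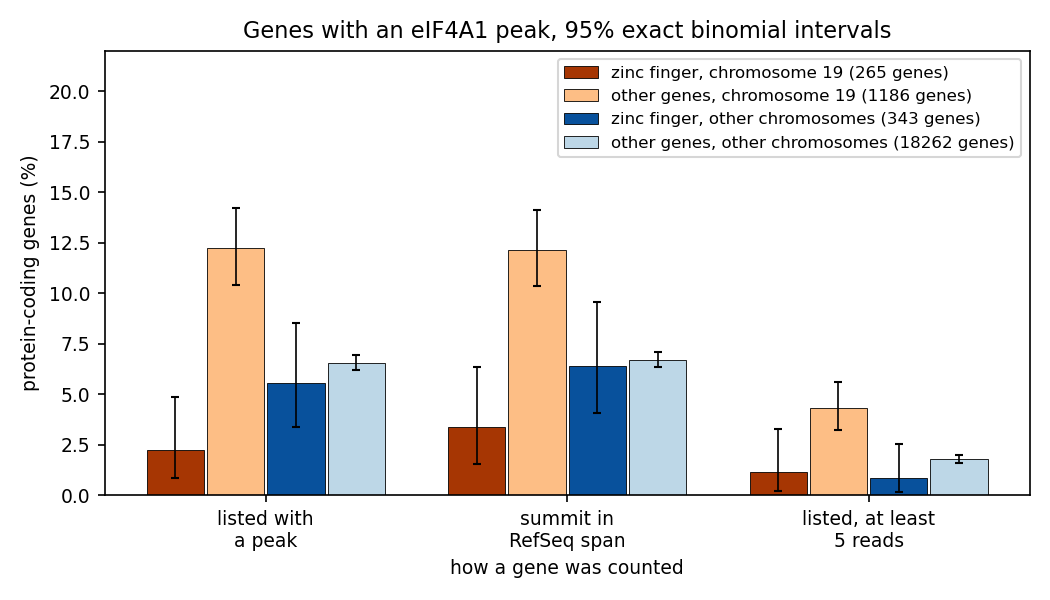
Share of protein-coding genes with an eIF4A1 peak (y axis, percent), for zinc finger genes and other genes on chromosome 19 and elsewhere, under 3 ways of counting a gene (x axis). Bars are shares and error bars are exact 95% binomial intervals; the zinc finger bar of chromosome 19 stands at 2.26% beside 12.2% for the other genes of that chromosome.

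Zinc finger peaks rested on few reads. The number of eIF4A1 reads at each summit, worked out from the fold and the −log10 p of its peak, was 2 at 7 peaks, 3 at 15 peaks, 4 at 1 peak, 5 at 2 peaks and 6 at 4 peaks. Thus 22 of 29 peaks (75.9%, interval 56.5 to 89.7) had 2 or 3 reads, against 1003 of 1815 peaks of other genes (55.3%, interval 52.9 to 57.6). No zinc finger peak had 7 or more reads (0 of 29, exact interval up to 11.9%), while 206 of the 1815 other peaks had, a share of 11.3% that this interval contains. The median was 3 reads in both sets, and the upper quartile was 3 for zinc finger peaks and 5 for the others.

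The fold followed the reads because the control background was low at every one of these peaks, from 0.00298 to 0.211 expected reads. Peaks of 2 reads had folds of 2.94 to 2.99, those of 3 reads 3.88 to 3.99, and those of 6 reads 6.04 to 6.65. The median fold was 3.93 for zinc finger peaks and 3.99 for the peaks of other genes. A difference of 1 read is within counting error, so genes next to each other in this order were not distinguishable at this depth. Of the zinc finger peaks, 17 of 29 were 20 bases wide (58.6%, interval 38.9 to 76.5), against 38.7% of the others (interval 36.5 to 41.0). These intervals overlap slightly. A width of 20 bases was the smallest in both sets, and all 17 of these zinc finger peaks had 2 or 3 reads.

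**Figure D2:**
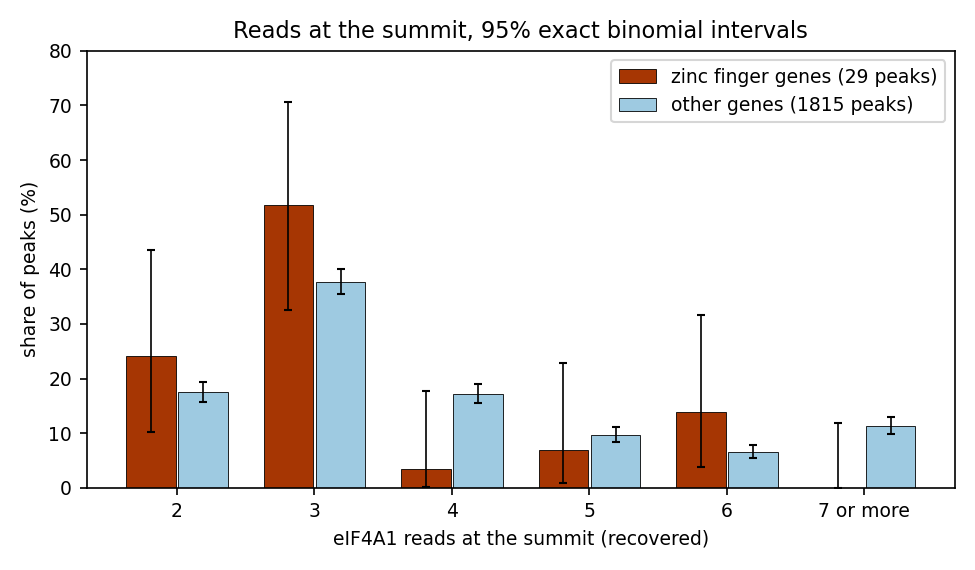
Share of peaks (y axis, percent) by the number of eIF4A1 reads at the summit (x axis), for the 29 peaks of zinc finger genes and the 1815 peaks of other genes, with exact 95% binomial intervals. Of the zinc finger peaks, 75.9% had 2 or 3 reads and none had 7 or more.

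The highest fold was that of ZNF668, a C2H2 gene linked to the DNA damage response. Its single peak (chromosome 16, 31061047 to 31061069, hg38) had a fold of 6.65 and a −log10 q of 6.46, on 6 eIF4A1 reads over a background of 0.0528. The summit lies 212 bases from the 3' end of the gene, in the 3' UTR class. The highest fold among other genes was 13.3.

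ZFP36 had a peak of 6 reads with a fold of 6.14 and a −log10 q of 4.22 (chromosome 19, 39408117 to 39408352). At 236 bases it was the widest peak of the set. The summit lies 1453 bases from the 5' end of a gene that spans 2561 bases, in the promoter class, although it is past the middle of the gene.

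ZBTB41, of the BTB domain group, had a pair of peaks close to its 5' end (chromosome 1). The summit at 197199555 had 6 reads and a fold of 6.04, and the summit at 197200238 had 3 reads and a fold of 3.93. They lie 1738 and 1055 bases into a span of 47612 bases. ZBTB41 is the only gene of the set with 2 peaks of which 1 had at least 5 reads.

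ZNF414 had the highest −log10 q of the set, 7.06, on 5 reads over a background of 0.0176, with a fold of 5.90 (chromosome 19, 8512620 to 8512643). ZNF141, a KRAB gene, had the single intronic peak, also on 5 reads, with a fold of 4.95 and a −log10 q of 2.37 (chromosome 4, 342788 to 342843). The equal read numbers gave q values far apart because the background at ZNF141, 0.211, was the highest of the set. ZBTB9 followed with 4 reads, a fold of 4.91 and a −log10 q of 5.14 (chromosome 6, 33453595 to 33453617), at a site where annotated genes overlap. Peaks carry no strand in the deposited files, and overlapping genes cannot be told apart there.

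The remaining peak of 6 reads is listed under ZNF784 with a fold of 6.14 (chromosome 19, 55616965 to 55616990). Its summit lies outside ZNF784, 3768 bases past the 3' end, and inside ZNF865, another C2H2 gene. For ZSCAN21, a SCAN domain gene, the summit of 3 reads (fold 3.99) lies 565 bases before the gene and in no RefSeq gene. In all other cases the summit was inside the gene named, which makes 27 of 29 (93.1%, interval 77.2 to 99.2), against 80.3% of the peaks of other genes (interval 78.4 to 82.1).

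**Figure D3:**
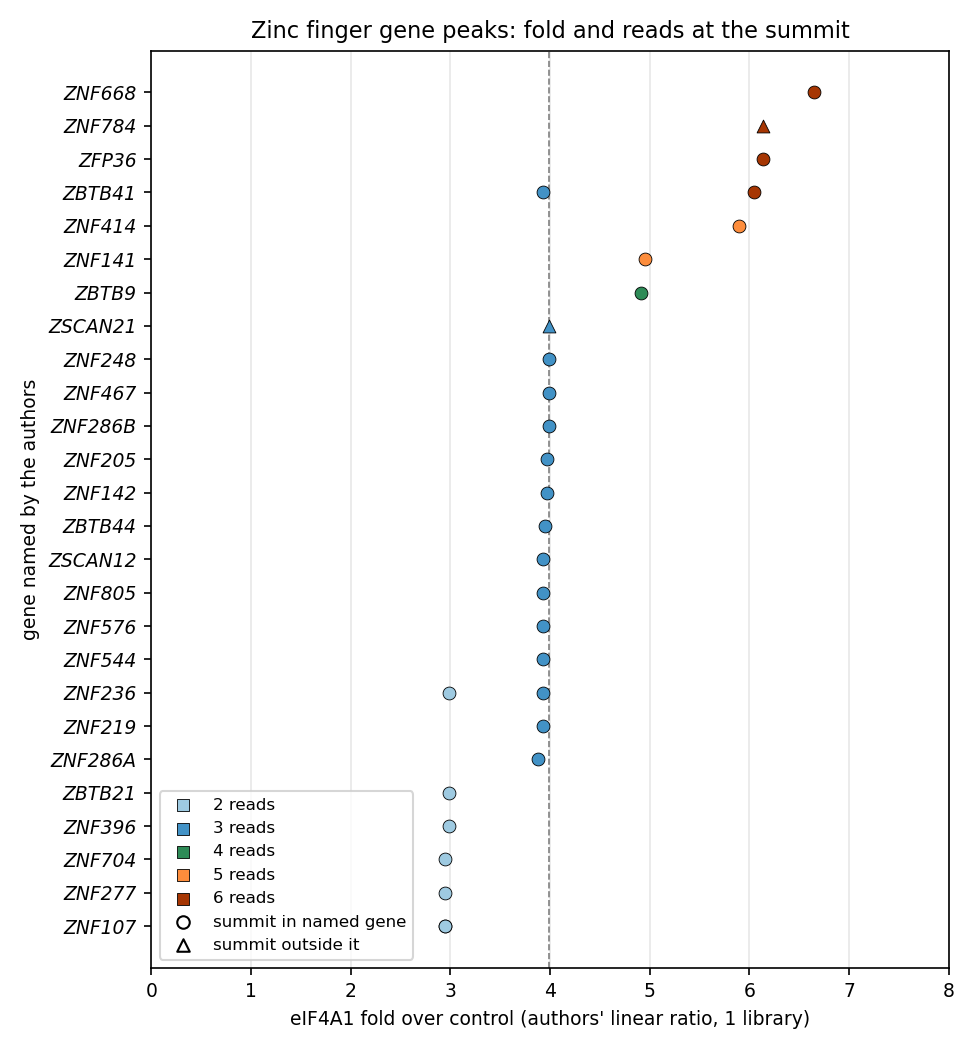
eIF4A1 fold over control (x axis, the authors' linear ratio) of each of the 29 peaks, by gene (y axis), coloured by reads at the summit; triangles mark the 2 summits outside the gene named, and the dashed line is the median fold of other genes, 3.99. The values stand in steps of 1 read, from 2.94 to 6.65; the pair of ZNF107 peaks overlap.

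At 3 reads stood 15 peaks in 15 genes. Besides ZSCAN21 and the second ZBTB41 peak these were ZNF248, ZNF286A, ZNF205, ZNF544 and ZNF805, which are KRAB genes, the SCAN domain gene ZSCAN12, the BTB domain gene ZBTB44, and ZNF467, ZNF286B, ZNF142, ZNF576, ZNF236 and ZNF219. Although the reads were equal, −log10 q ran from 2.77 at ZNF286A to 5.49 at ZNF248 and ZSCAN21, with backgrounds of 0.0299 and 0.00298. A q value in this set therefore orders the peaks by the control background as much as by eIF4A1 reads. ZNF286A and ZNF286B, on chromosome 17, are near-identical copies, and with 3 reads at each the assignment between them is uncertain.

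At 2 reads stood 7 peaks in 6 genes, and their folds did not exceed 2.99. ZBTB21 had 1 such peak, 151 bases wide, and ZNF396, ZNF277 and ZNF704 had 1 each. ZNF107 had both of its peaks at this level, with folds of 2.95 and 2.94, and both summits also lie in the span of the pseudogene BNIP3P11. ZNF236, a gene of many fingers, had a summit of 2 reads (fold 2.99) and another of 3 reads (fold 3.93), at 57735 and 52979 bases into a span of 150345 bases. ZBTB41, ZNF107 and ZNF236 were the only genes of the set with more than 1 peak (3 of 26), against 209 of 1513 other genes.

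Under stricter rules on reads and on q, 6 protein-coding zinc finger genes of 608 passed each (0.987%, interval 0.363 to 2.14), and 5 had a fold of at least 5 (0.822%, interval 0.268 to 1.91). With a summit of at least 5 reads they were ZNF668, ZFP36, ZNF784, ZBTB41, ZNF414 and ZNF141, and the share of all protein-coding genes was 1.90%. At a −log10 q of 5 or more they were ZNF668, ZNF414, ZBTB9, ZNF248, ZSCAN21 and ZNF467 (the pseudogene ZNF286B also passed), and the share of all was 2.10%. ZNF668 and ZNF414 passed both. The interval of the 6 genes contains 1.90% and 2.10%, so at these 2 settings the share of zinc finger genes was not distinguishable from that of all genes. For the fold rule the share of all protein-coding genes was not counted. By peaks, 5 of 29 zinc finger peaks had a fold of at least 5 (17.2%, interval 5.85 to 35.8), against 23.1% of the 1844 peaks in all, which that interval contains.

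In the authors' annotation 19 of 29 zinc finger peaks were in the promoter class (65.5%, interval 45.7 to 82.1), 5 in 3' UTRs, 4 in exons and 1 in an intron. Among other genes the promoter share was 59.5% (interval 57.2 to 61.8), within the interval of the zinc finger peaks. The 3' UTR peaks were those of ZNF668, ZNF784, ZBTB44, ZSCAN12 and ZNF277, and the exon peaks those listed under ZNF467, ZNF805, ZNF236 and ZNF704. The ZNF704 summit also lies in the span of CKS1BP7. The exon named there is of a transcript that the annotation does not tie to the ZNF704 gene ID, so its gene is uncertain. The exon peaks of ZNF467 and ZNF805 lie in the last exon of the transcript named, which in many C2H2 genes encodes the finger array. In the 5' UTR class there was none, and the promoter class can also hold summits in a leader.

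A larger share of zinc finger summits than of other summits lay near the 5' end of the gene, by counts that were not tested. Of 18 promoter-class summits inside the gene named, 13 were within 3 kb of the RefSeq 5' end (72.2%, interval 46.5 to 90.3), against 339 of 947 in other genes (35.8%, interval 32.7 to 38.9). Over all classes it was 13 of 27 (48.1%, interval 28.7 to 68.1) against 339 of 1457 (23.3%, interval 21.1 to 25.5). The median summit stood 34.1% of the way along the gene in the zinc finger set and 60.3% in other genes. The genes concerned were shorter in the zinc finger set, with a median span over peaks of 23.9 kb against 37.6 kb, and the part of this in the distance was not tested.

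The nearest to a 5' end was ZNF396 with 347 bases, then ZNF286A with 518, ZBTB9 with 523, ZNF286B with 649 and ZNF248 with 900. In the last 20% of the span lay 7 of 27 summits (25.9%, interval 11.1 to 46.3), against 31.6% of the summits in other genes. They were those of ZNF668, ZSCAN12, ZNF704, ZBTB44, ZNF277, ZNF467 and ZNF219. The ZNF219 peak is among the promoter-class peaks, at 83.0% of the span. That class counts distance from the start of any annotated transcript, and not from the 5' end of the gene.

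**Figure D4:**
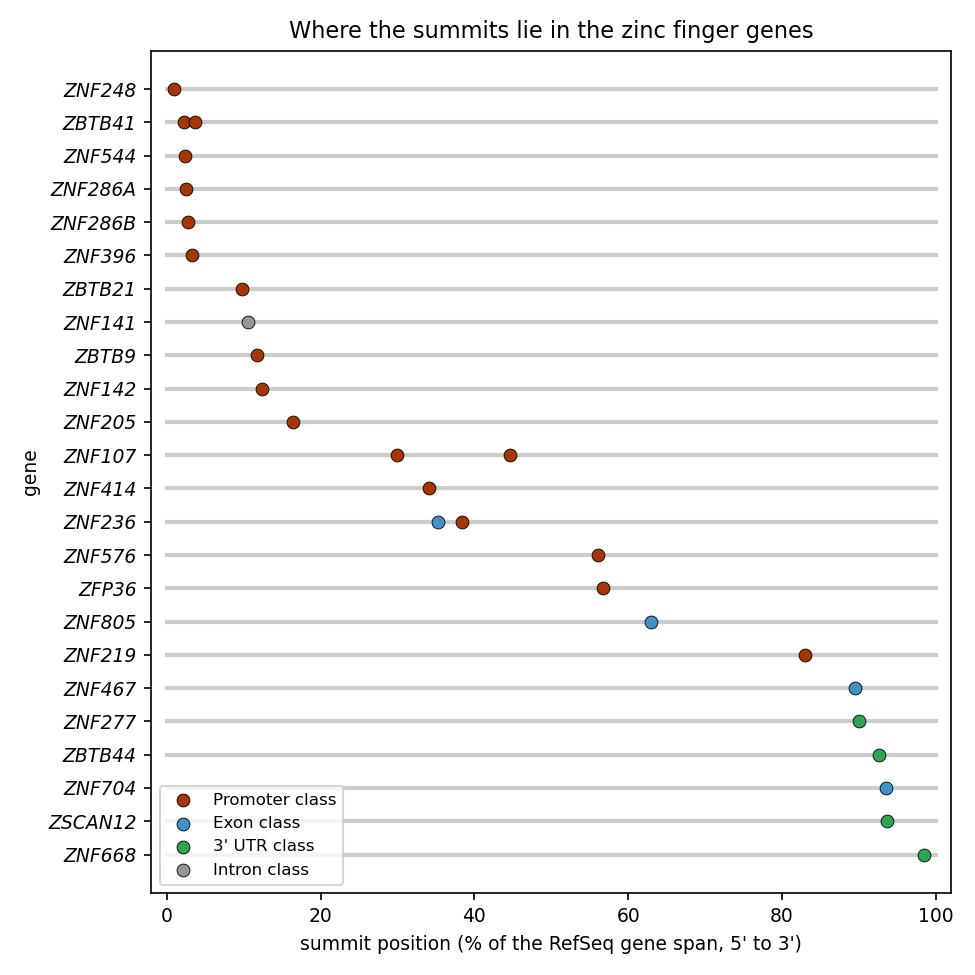
Position of each of the 27 summits inside the gene named (x axis, percent of the RefSeq span from 5' to 3'), by gene (y axis), coloured by the authors' annotation class. Promoter-class summits crowd the first 20%, while 3' UTR summits lie in the last 20%, with ZNF668 farthest along.

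None of the 29 zinc finger peaks overlapped a RefSeq promoter window (250 bases before to 50 after a transcript start, GRCh38.p14), against 42 of the 1844 peaks in all (2.28%). The exact interval of 0 of 29 reaches 11.9% and contains that share. The windows do not cover every transcript start that the authors used. In the authors' annotation the ZBTB21 peak lies 6 bases from a start, and a ZNF236 peak 10 bases. Repeats of GGC in leaders are known from other work as a feature of mRNAs that depend on eIF4A1, so the windows were searched for runs of GGC. Only the 50 bases after a start belong to that transcript, so most of each window is DNA before it and not leader. Windows were at hand for 22 of the 26 genes. The motif GGCGGC stood on the transcript strand in 5 of them (22.7%), against 26.3% of 27305 genes with a window and 34.1% of 542 zinc finger genes with one. On either strand it stood in 8 (36.4%), against 38.6% and 52.2%. The longer GGCGGCGGC stood on the transcript strand in 1 (4.55%), against 5.37%, and on either strand in 2 (9.09%), against 8.90%. GGCGGCGGCGGC was in none on either strand, against 3.16% of all genes. The longer motifs contain the shorter ones, and a match describes letters in a window, not a bound site.

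The matches on the transcript strand are shown because they are the stretches behind that count. Each line gives 30 bases from RefSeq, 5' to 3' on the strand of the gene, with the GGC run in capitals. The matches of ZBTB21 (chr21:42010311-42010340, minus strand) and ZNF544 (chr19:58228934-58228963, plus strand) begin 39 and 42 bases after a transcript start. Those of ZBTB9 (chr6:33454560-33454589), ZNF236 (chr18:76822433-76822462) and ZNF576 (chr19:43596522-43596551), all on the plus strand, begin 6, 112 and 61 bases before one. A second window of ZNF576 holds 1 more match, which is not shown.
ZBTB21: tggaatcacagcggcagcGGCGGCtgcggc
ZNF544: ccggtgcgtgcaggtgagtctGGCGGCctc
ZBTB9: ccggcggggaGGCGGCGGCttccggtctgg
ZNF236: ccccgtgagcccGGCGGCgctcggaccggg
ZNF576: acttctctctggGGCGGCgctgtagccagc

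On the transcript strand, ZBTB9 alone holds a run of 3 GGC units, which begins 6 bases before a transcript start and runs across it. The eIF4A1 peak of ZBTB9, of 4 reads, lies outside that window. The GC content of the first 50 bases after the start had a median of 62.7% over the 22 genes, from 54.0% in ZNF219 and ZNF668 to 74.0% in ZSCAN21, ZNF205 and ZNF805. It was 64.0% over all zinc finger genes of the rule, 64.0% over all protein-coding genes and 67.1% over protein-coding genes with a peak. The zinc finger genes with a peak thus had a median GC content at the start no higher than that of the family as a whole.

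Some zinc finger genes hold a summit that the authors' table lists under a neighbour. There were 8 such peaks in 7 genes, listed under genes outside the set, with folds of 2.99 to 6.65. ZNF358 had both of its peaks listed under MCOLN1: 1 had 6 reads and a fold of 6.65 (chromosome 19, 7520823 to 7520845) and the other 4 reads and a fold of 4.19. Both summits also lie in the span of LOC105372261, and the peaks carry no strand to tell the overlapping genes apart. ZNF335, which encodes a regulator of neural progenitor cells, had 5 reads and a fold of 5.92 with a −log10 q of 7.55, listed under PCIF1 (chromosome 20, 45950267 to 45950296). That q is higher than any in the set itself.

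ZBTB4, which encodes a protein that binds methylated DNA, had 8 reads at a summit listed under CHRNB1 (chromosome 17, 7466471 to 7466628), more than any peak of the set. Its fold was 4.79 and its −log10 q 1.87, since the control background there was 0.880. ZBTB2 (listed under AKAP12, fold 4.94), ZNF862 (under ATP6V0E2, 4.93) and ZNF264 (under AURKC, 4.90) each had 4 reads, and ZNF497 (under its antisense gene ZNF497-AS1, 2.99) had 2. Counted by the RefSeq span that holds the summit, 31 of 608 protein-coding zinc finger genes had one (5.10%, interval 3.49 to 7.16), against 6.98% of all protein-coding genes. This interval contains the share of all genes, while that for genes as listed does not.

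Of 25 genes of the KRAB corepressor machinery, CBX5, encoding heterochromatin protein HP1 alpha, was the only one with a peak (fold 4.75, 5 reads), and TRIM28 and SETDB1 had none. The share was 4.00% (interval 0.101 to 20.4), an interval too wide to set it apart from 6.83%.

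Other C2H2 transcription factors, named outside the ZNF series, had a peak in 7 of 96 cases (7.29%, interval 2.98 to 14.4). They included the repressor gene BCL6 (best fold 6.23, 6 reads), KLF6 (5.78, 6 reads), the immediate early gene EGR1 (4.79, 8 reads) and PRDM15 (3.99, 3 reads). RING finger genes, most of which encode ubiquitin ligases, had one in 10 of 85 (11.8%, interval 5.79 to 20.6), led by RNF10 (5.70), RNF167 (5.67), RNF123 (5.51) and RNF208 (4.83). Zinc finger genes of other name series had one in 5 of 95 (5.26%, interval 1.73 to 11.9), led by the palmitoyltransferase gene ZDHHC8 (6.88), ZSWIM8 (6.54) and ZCCHC14 (5.26). HOX cluster genes had none of 40 (exact interval up to 8.81%), forkhead genes 1 of 52 (FOXP1, fold 5.70) and SOX genes 1 of 19 (SOX6, 7.45 on 13 reads). The interval for the zinc finger set, 2.68 to 6.01, overlaps that of every one of these groups, although it ends below the shares of the RING finger genes and of the other C2H2 transcription factors.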

How the data were processed

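RNA immunoprecipitation sequencing of DU145 cytoplasmic lysate gave 1 eIF4A1 and 1 IgG library, grouped by the antibody label. The submitters' processing notes name MACS2 and ChIPseeker, among other tools, and the builds hg19, GRCh38 and hg38, without versions or roles. The deposited peak track gives a score (the whole part of 10 times −log10 q), a fold as a linear ratio, −log10 p and −log10 q, per the file headers. It is filed under the IgG sample, but every peak is named after the eIF4A1 library and was taken as an eIF4A1 peak; the sources used here do not say which library was its control, nor what filter the peak names refer to. Summit and −log10 q in the deposited annotation equal those of the track in all 1919 annotated peaks.

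Gene IDs were paired with RefSeq symbols (GRCh38.p14) for 1918 peaks. Reads and background were recovered by solving fold = (reads + 1)/(background + 1) with the Poisson tail, which gave reads within 0.01 of a whole number in 1920 of 1920 peaks; on 500 simulated peaks all were recovered. This rests on the caller's formula, and library depth is unknown. Intervals are exact Clopper-Pearson at 95% (scipy 1.17.1, Python 3.11.15) and cover counting error only, as reads without molecular identifiers are not independent molecules.

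Values are printed for the 15 genes with the highest fold, those with 2 or more peaks, at least 5 reads or a summit outside the gene, and up to 4 genes of each comparison list; other genes named were chosen after their values were seen. The genes, lists and settings were chosen with earlier results of these data known. Alternatives were stricter peaks, merged peaks, RefSeq gene bodies, other classes and wider symbols. Some genes of the comparison lists are not reported here.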

Additional observations from a re-analysis of the deposited data

Results flagged for a closer look

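A peak named after ZNF596 was kept out of the set because the authors' table calls it distal intergenic. It had a fold of 6.23 on 6 eIF4A1 reads (chromosome 8, 305274 to 305381), with a −log10 q of 4.57. Its summit lies 64642 bases from the start of the transcript named and inside the RefSeq gene LOC124902052, not in ZNF596. The other intergenic peak named after a zinc finger gene, ZNF691, had 2 reads and a fold of 2.99.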

How the results depend on the processing

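From 26 genes and 29 peaks, the counts fell to 7 genes and 7 peaks with a −log10 q of at least 5, 5 and 5 with a fold of at least 5, 6 and 6 with at least 5 reads, 9 and 9 with exon and UTR classes alone, and 0 for both when the background was raised to 1 control read; each of these settings admits fewer peaks by construction. Under the last setting no median or share could be given. No count over all peaks is given beside its 0, which is therefore no result about zinc finger genes. Over all 1844 peaks not called intergenic, 20.8% were in the exon class, 13.2% in 3' UTRs and 0.813% in 5' UTRs. Of 25 protein-coding genes with a peak, the chromosome 19 share of 24.0% was 60.0% with a fold of at least 5 and 50% with at least 5 reads, on 5 and 6 genes. With a −log10 q of at least 5 that share was 16.7%, on 6 genes. The share of summits inside the gene named, 93.1%, was 100.0% by RefSeq gene body, by construction. Merged peaks and placed chromosomes gave the same counts, and gene bodies, intergenic peaks and wider symbols gave 28 to 33 genes. Over all results, 42 of 58 alternative values lay within the interval of the main value or within 1.5 times of a count. No replicate could be left out. No paired analysis was possible because there is 1 pair of libraries. Read depth limits every gene named: no summit of the set exceeded 6 reads.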

Other observations

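Peaks of zinc finger symbols that the name rule leaves out were as sparse. ZNF205-AS1 was listed with 1 intronic peak with a fold of 5.98 on 5 reads, but its summit lies in LOC124903629 and outside ZNF205-AS1. The summit of 3 reads listed under ZNF205 lies in the spans of both ZNF205 and ZNF205-AS1. ZFTRAF1 had 2 exon peaks with folds of 3.93 and 2.95, which also lie in the readthrough gene TMEM276-ZFTRAF1. ZFPM2, a cofactor of GATA proteins, was listed with an intronic peak of 2 reads (fold 2.99) whose summit lies in no RefSeq gene.

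Protein-coding zinc finger genes with a peak were spread over 14 chromosomes, with at most 6 on any of them.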
